A study of Mus musculus with 12 samples.

Results

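The genes of the MHC class II antigen presentation pathway were examined in sorted bone-marrow stem cells of mice with and without the oncostatin M receptor gene Osmr. The set was given by symbol and holds 7 of the 43279 genes in the deposited table: H2-Aa, H2-Ab1, H2-Eb1, H2-DMa, H2-DMb1, Cd74 and Ciita. Bulk RNA-seq libraries came from 6 wild-type mice, which the labels call C57BL/6, and from 5 Osmr-/- mice, whose strain background the labels do not name. All mice were adult and untreated (naive), and each library came from a different mouse, so the spread between libraries includes the spread between animals. From femur, tibia and ilium, 1000 Lin- KIT+ SCA1+ FLT3- CD48- cells were sorted per mouse, a gate that holds long-term and short-term repopulating stem cells. Their polyadenylated RNA was copied with a SMART-Seq v4 kit. The genotype label names no promoter, Cre line or cell type for the loss of Osmr. An Osmr-/- mouse numbered 4 is labelled but was not analysed here. The series asks how loss of this receptor, which passes on the oncostatin M signal together with gp130, alters hematopoietic stem cells.

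MHC class II molecules are pairs of an alpha and a beta chain that display peptides from endosomes to CD4 T cells. The invariant chain encoded by Cd74 escorts new pairs to the endosome and fills their groove on the way, and the H2-DM dimer then swaps the last invariant chain fragment for a peptide. Transcription of the whole set depends on the coactivator CIITA, which does not bind DNA itself but docks on factors assembled at short promoter boxes called X and Y. B cells, dendritic cells and macrophages are the classical sites of expression, and class II molecules have also been described on hematopoietic stem and progenitor cells. Mice of the C57BL/6 background lack a working H2-Ea gene, so their H2-Eb1 chain has no partner and the H2-Aa and H2-Ab1 chains form their one classical class II molecule.

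The promoters of H2-Aa and H2-Eb1 are shown because both genes lie in the same cluster on chromosome 17, both hold the letters of the paired boxes through which CIITA is known to work, and their genotype differences within numbers 4 to 6 of the libraries lay on opposite sides of 0. RefSeq promoter windows on GRCm38.p6, with 250 bases before and 50 bases after the transcript start, were found for 4 of the 7 genes. The 130 bases just before the start are printed 5′ to 3′ on each gene's own strand. Capitals mark the core of the X box, searched as GNAACT, and the core of the Y box, searched as GATTGG, which contains the reversed CCAAT motif. H2-Aa lies on the minus strand and its stretch is chr17:34287824-34287953. H2-Eb1 lies on the plus strand and its stretch is chr17:34305737-34305866.
H2-Aa: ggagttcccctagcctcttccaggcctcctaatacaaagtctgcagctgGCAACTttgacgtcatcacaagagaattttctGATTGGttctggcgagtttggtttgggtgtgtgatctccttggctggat
H2-Eb1: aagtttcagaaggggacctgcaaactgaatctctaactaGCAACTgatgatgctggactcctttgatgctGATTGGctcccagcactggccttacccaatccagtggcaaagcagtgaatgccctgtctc

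In H2-Aa the X core began 81 bases and the Y core 49 bases before the start. In H2-Eb1 they began 91 and 60 bases before it, and in H2-DMb1 94 and 62 bases before it. The distance from the first base of one core to the first base of the other was thus 32, 31 and 32 bases in the 3 genes. Over all 32851 RefSeq windows, searched on both strands, 42.8% held the X core and 16.1% the Y core. Both cores at 30 to 34 bases, in this order, were found in 47 windows, or 0.143%. The letters and the spacing were chosen after these promoters had been read, so the match is a description of these windows. Neither core was found in the first of the windows of H2-DMa, and the second held both cores but not at this spacing. H2-Oa and H2-Ob, the chains of the DM inhibitor H2-O, had the Y core without the X core in theirs, as did H2-DMb2. H2-Eb2, a class II chain outside the set examined, held both cores at this spacing. It had 0 reads in wild type and 5 in Osmr-/-. Whether the paired cores go with the read level was not tested.

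The libraries differed in depth and in more than genotype. Wild type 1 was the deepest library at 22.1 M reads (M is the prefix mega), and the other 10 held between 9.50 and 13.6 M. Mean totals were 13.5 ± 4.45 M in wild type (SD, n = 6) and 10.6 ± 0.693 M in Osmr-/- (SD, n = 5), with an exact two-sided permutation p of 0.119. Libraries numbered 1 to 3 in the labels were known from earlier work on these data to stand apart from those numbered 4 to 6 in both genotypes. The labels name no batch, so values within each number set (3 and 3 libraries for 1 to 3, 3 and 2 for 4 to 6) are given beside the class II results. Osmr itself had 13 reads over all wild-type and 4 over all Osmr-/- libraries, which gave no check of the genotype labels. Kit, whose protein the gate selects for, had a normalised count, which is the read count divided by the library's size factor, of 3312 to 4512 in wild type and 3666 to 5183 in Osmr-/-, and Ly6a, which encodes SCA1, 3297 to 7077 and 5070 to 9513. Flt3, whose protein the gate excludes, was also read, at 323 to 735 in wild type and 229 to 573 in Osmr-/-.

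Transcripts of 6 of the 7 genes were read in every library, and Ciita had 0 reads in wild types 2 and 6. Per kilobase of GENCODE M21 exon, wild-type means of the normalised count were 1829 ± 1172 for Cd74 and 1152 ± 480 for H2-DMa (SD, n = 6). H2-Ab1 followed at 470 ± 305 and H2-Aa at 398 ± 226, then H2-DMb1 at 255 ± 132, H2-Eb1 at 102 ± 96.5 and Ciita at 0.718 ± 0.960. The length was the union of all annotated exons, 1679 bases for Cd74, 3448 for H2-DMa, 2568 for H2-Ab1 and 3798 for H2-Aa. The order therefore depends on the annotation. Before division by length, H2-DMa (3972) was above Cd74 (3072) and H2-Aa (1511) above H2-Ab1 (1207) in wild-type means. On this per-length scale the order Cd74, H2-DMa, H2-Ab1 held in 6 of 6 wild-type libraries, as did H2-DMb1 over H2-Eb1 and H2-Eb1 over Ciita. H2-Ab1 was above H2-Aa in 4 of 6 and H2-Aa above H2-DMb1 in 5 of 6, so the order of these pairs varied between libraries. Differences between genes were not tested. In Osmr-/- the per-length means (SD, n = 5) were 654 ± 273 for H2-DMa, 633 ± 159 for Cd74, 238 ± 102 for H2-Aa, 125 ± 23.8 for H2-DMb1 and 125 ± 55.3 for H2-Ab1. H2-Eb1 stood at 41.8 ± 48.3 and Ciita at 2.77 ± 2.74. H2-DMa was above Cd74 in 3 of 5 of these libraries, H2-DMb1 above H2-Ab1 in 2 of 5, and H2-Aa above H2-DMb1 in 4 of 5, so the order of these neighbours varied. Cd74 was above H2-Aa, and H2-Ab1 above H2-Eb1, in 5 of 5, and H2-Eb1 above Ciita in 4 of 5. All class II genes together took 0.0565 to 0.176% of reads in wild type and 0.0238 to 0.0532% in Osmr-/-.

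**Figure D1:**
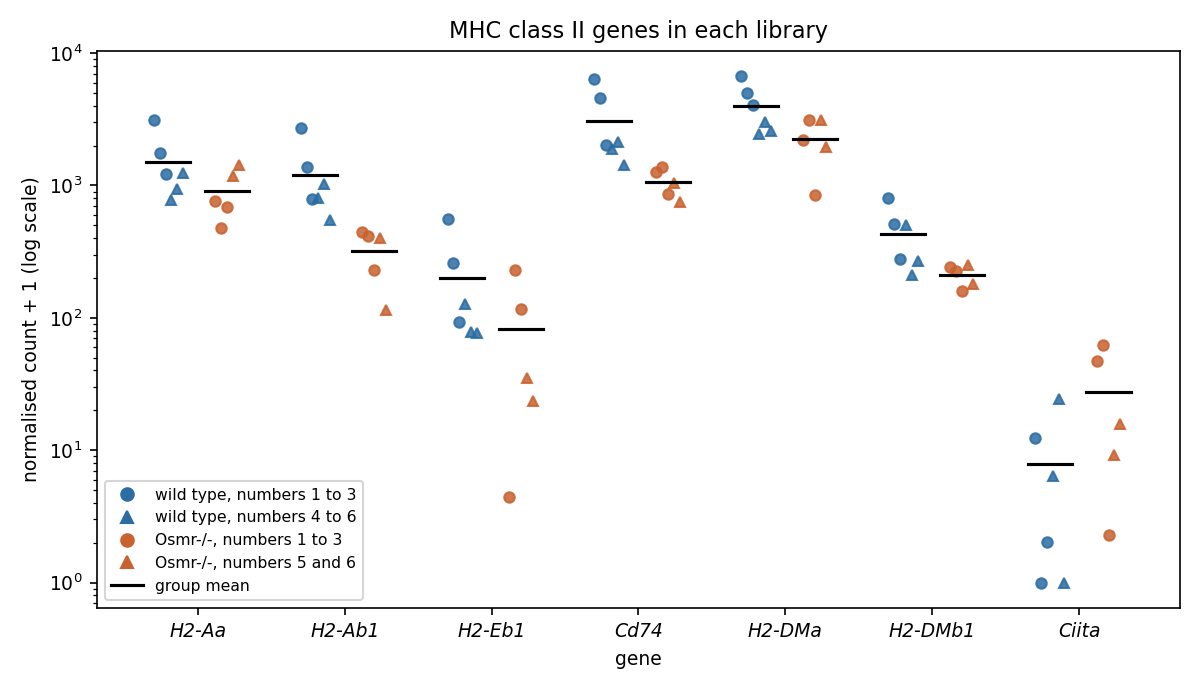
Normalised count plus 1 on a log axis for the 7 class II genes, with 1 point per library (blue wild type, orange Osmr-/-; circles for label numbers 1 to 3, triangles for 4 to 6) and a black bar at each group's mean. All Osmr-/- points of H2-Ab1 and Cd74 lie below all wild-type points, while the 2 groups overlap for the other 5 genes.

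H2-Ab1 and Cd74 were the members whose genotypes did not overlap, and both were lower in Osmr-/-. H2-Ab1, the beta chain of the classical class II molecule, lies at chromosome 17 from 34257689 to 34269419 (GRCm38, plus strand). Its normalised counts in wild types 1 to 6 were 2702, 1375, 789, 810, 1017 and 550, and in Osmr-/- mice 1, 2, 3, 5 and 6 they were 441, 416, 229, 398 and 114. The highest Osmr-/- library was thus below the lowest wild type. The means were 1207 ± 783 (SD, n = 6) and 320 ± 142 (SD, n = 5), a log2 difference of -1.87 with a standard error of 0.423 and a 95% interval from -2.77 to -0.97. This is 3.66-fold lower on the log2(normalised count + 1) scale. The test was limma, a linear model fitted across all genes, over the 13358 genes with a normalised count of 10 or more in 5 or more libraries. Its p was 0.000477 and its Benjamini-Hochberg adjusted p was 0.0801, which missed the threshold of 0.05. Over the alternatives the adjusted p ran from 0.000958 with DESeq2, run on whole reads recovered from the normalised values, to 0.367 within numbers 4 to 6. The log2 difference was -2.04 within numbers 1 to 3 and -1.84 within numbers 4 to 6, and with the number set as a covariate it was -1.95 with an adjusted limma p of 0.0329. The authors' deposited table lists H2-Ab1 at a log2 fold change of -1.56 (adjusted p 0.00259). In bulk samples, fewer cells carrying a transcript and less of it per cell cannot be told apart, which holds for every gene described here.

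H2-Aa, the alpha chain that pairs with H2-Ab1, did not follow its partner in all libraries. It lies at chromosome 17 from 34282744 to 34287823 on the minus strand. Its normalised counts were 3125, 1758, 1225, 771, 941 and 1245 in wild types 1 to 6 and 759, 477, 690, 1177 and 1426 in Osmr-/- mice 1, 2, 3, 5 and 6. Osmr-/- 1 to 3 were below every wild type, whereas Osmr-/- 5 and 6 lay inside the wild-type range. The means were 1511 ± 859 (SD, n = 6) and 905 ± 386 (SD, n = 5), with a log2 difference of -0.69, a standard error of 0.358, a 95% interval from -1.45 to 0.08 and an adjusted limma p of 0.333. Within numbers 1 to 3 the mean was 2036 in wild type and 642 in Osmr-/-, a log2 difference of -1.58. Within numbers 4 to 6 it was 986 and 1301, a log2 difference of 0.42 in the other direction.

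H2-Eb1, the beta chain without a partner in C57BL/6 mice, varied more between libraries than the H2-A chains. It spans chromosome 17 from 34305867 to 34316674 on the plus strand. Its normalised counts were 554, 258, 92.7, 127, 77.7 and 75.5 in wild types 1 to 6 and 3.40, 231, 116, 34.0 and 22.4 in Osmr-/- 1, 2, 3, 5 and 6. Osmr-/- 1 was the lowest of all, Osmr-/- 2 and 3 lay among the wild types, and Osmr-/- 5 and 6 were below them. The means were 198 ± 188 (SD, n = 6) and 81.3 ± 93.9 (SD, n = 5). The log2 difference was -1.90 (standard error 0.874, adjusted limma p 0.268), and it ran from -2.54 to -1.11 when single libraries were left out. It was -2.27 within numbers 1 to 3 and -1.68 within numbers 4 to 6. Other measures gave a smaller difference, -1.28 with DESeq2, -1.29 with edgeR and -0.89 on rLog values. The authors' deposited table lists H2-Eb1 at a log2 fold change of -0.74 (adjusted p 0.399). The would-be alpha partner was represented by H2-Ea-ps, which had 3 reads, all in Osmr-/- 6.

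Cd74, the invariant chain and also a receptor for the cytokine MIF, had the lower level in all Osmr-/- libraries. The gene lies at chromosome 18 from 60803848 to 60812652 on the plus strand. Its normalised counts were 6397, 4559, 2034, 1895, 2122 and 1423 in wild types 1 to 6. In Osmr-/- 1, 2, 3, 5 and 6 they were 1261, 1388, 866, 1051 and 747. Wild types 1 and 2 stood above the other wild types, and the highest Osmr-/- library was just below wild type 6. The means were 3072 ± 1967 (SD, n = 6) and 1063 ± 266 (SD, n = 5). The log2 difference was -1.35, with a standard error of 0.352 and a 95% interval from -2.10 to -0.60. This is 2.55-fold lower on the log2(normalised count + 1) scale. The limma p was 0.00157 and the adjusted p 0.105, and over the alternatives the adjusted p ran from 0.00359 with DESeq2 to 0.368 within numbers 4 to 6. Cd74 differed by -1.76 within numbers 1 to 3 and by -1.01 within numbers 4 to 6, and by -1.43 with the number set as covariate (adjusted limma p 0.0357). The authors' deposited table lists Cd74 at a log2 fold change of -1.30 (adjusted p 0.00827).

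The DM dimer, which edits the peptides that class II molecules carry, had lower means in Osmr-/- for both chains, with overlapping groups. H2-DMa spans chromosome 17 from 34119541 to 34139101 on the plus strand. Its normalised counts were 6710, 4988, 4076, 2463, 3016 and 2578 in wild types 1 to 6 and 2221, 3134, 853, 3110 and 1959 in Osmr-/- 1, 2, 3, 5 and 6. Wild types 1 to 3 were above every other library, and wild types 4 to 6 lay inside the Osmr-/- range. The means were 3972 ± 1654 (SD, n = 6) and 2256 ± 943 (SD, n = 5), with a log2 difference of -0.86 (standard error 0.347, adjusted limma p 0.225). The log2 difference of H2-DMa was -1.51 within numbers 1 to 3 and -0.12 within numbers 4 to 6. Its exons share 360 bases with exons of Brd2 on the other strand, and the strand setting of the counting is unstated in the labels and notes used here. Brd2 averaged 482 ± 186 normalised counts over wild-type libraries (SD, n = 6) and 307 ± 109 in Osmr-/- (SD, n = 5).

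H2-DMb1 spans chromosome 17 from 34153072 to 34160230 on the plus strand. Its normalised counts were 799, 512, 279, 501, 209 and 270 in wild types 1 to 6 and 240, 226, 160, 251 and 178 in Osmr-/- 1, 2, 3, 5 and 6. The Osmr-/- libraries formed a narrow range whose upper part lay above wild type 5. The means were 428 ± 222 (SD, n = 6) and 211 ± 40.1 (SD, n = 5), with a log2 difference of -0.88 (standard error 0.354, adjusted limma p 0.221). It was -1.24 within numbers 1 to 3 and -0.53 within numbers 4 to 6. H2-DMb2 is a close copy of H2-DMb1, and the sources used here do not say how reads matching both were counted, so the split between the 2 is uncertain. H2-DMb2 had 267 reads over the wild types and 118 over the Osmr-/- libraries, and its normalised counts ran from 0 to 78.4 in wild type and from 0 to 79.3 in Osmr-/-.

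Ciita, the coactivator of the whole set, had its higher mean in Osmr-/- on few reads. It spans chromosome 16 from 10480059 to 10528418 on the plus strand. Wild types 1 to 6 held 22, 0, 1, 7, 23 and 0 reads, 53 in all, and Osmr-/- 1, 2, 3, 5 and 6 held 41, 52, 1, 8 and 15 reads, 117 in all. Osmr-/- 1 and 2 were the highest and the other 3 lay within the wild-type range of reads. Normalised counts were 6.85 ± 9.15 in wild type (SD, n = 6) and 26.4 ± 26.1 in Osmr-/- (SD, n = 5). The log2 difference was 1.99 with a standard error of 1.17, a 95% interval from -0.50 to 4.48 and an adjusted limma p of 0.390. A difference in either direction is within this interval, so none was detectable at this depth. Ciita passed the filter on low values through exactly 5 libraries and was not tested when any one of them was left out (wild types 1 and 5, Osmr-/- 1, 2 and 6). Its exons share 329 bases with exons of Dexi on the other strand. Dexi, a gene beside Ciita, averaged 130 ± 55.7 normalised counts over wild-type libraries (SD, n = 6) and 40.7 ± 17.9 in Osmr-/- (SD, n = 5).

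**Figure D2:**
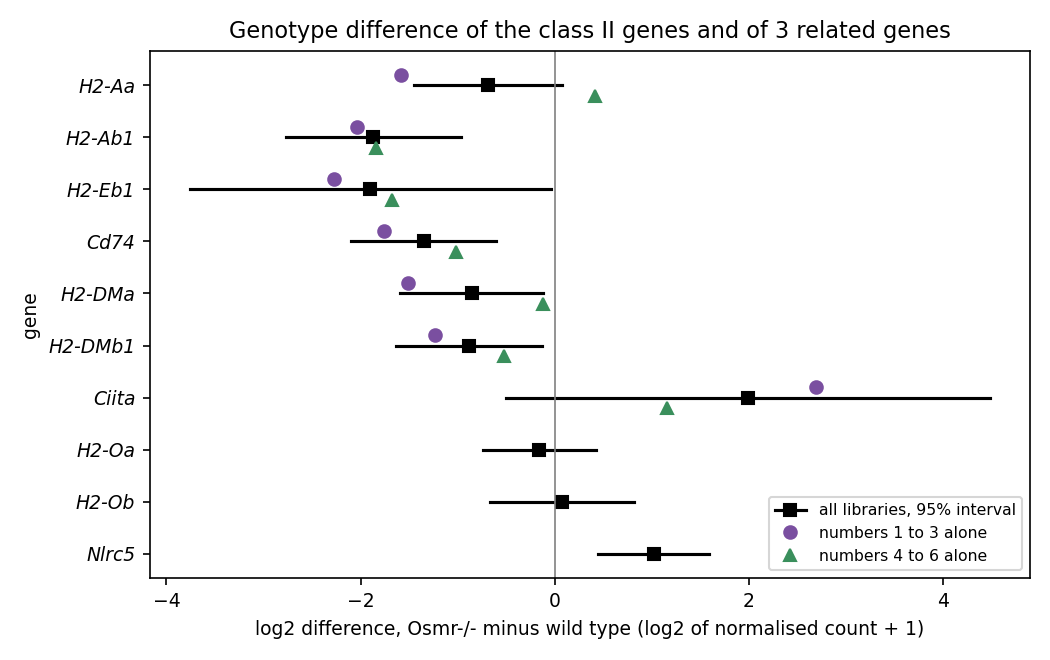
Log2 difference, Osmr-/- minus wild type, of the 7 class II genes and of H2-Oa, H2-Ob and Nlrc5. Black squares with lines give the estimate over all libraries with its 95% interval, purple circles the class II genes within numbers 1 to 3 and green triangles those within numbers 4 to 6; H2-Aa has its circle at -1.58 and its triangle at 0.42, while H2-Ab1 and Cd74 have both on the lower side.

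Over the set, 6 of the 7 genes had a difference below 0 and 1, Ciita, above. Among all genes tested, 53.2% were below 0. The median log2 difference was -0.88 over the 7 and -0.05 over all 13358. In the limma fit 0 of the 7 passed an adjusted p of 0.05, where 3 of all genes tested did (0.0225%, and 0.0150% lower). At an unadjusted p under 0.05, 5 of the 7 were called, all lower, beside 18.0% of all genes tested in either direction and 10.5% lower. edgeR's quasi-likelihood test on the recovered reads called 0 of the 7 (0.0150% of all genes). DESeq2 on the same reads called 2, H2-Ab1 and Cd74, both lower. It called 4.70% (3.26% lower) of the 9982 genes to which it gave an adjusted p. The fit with the number set as covariate called the same 2, beside 2.52% of the 13358 genes tested (1.53% lower). The authors' deposited table has these 2 genes past an adjusted p of 0.05 as well, beside 4.46% of its 13802 genes with an adjusted p (2.79% lower). Without wild type 6 limma called H2-Ab1 (adjusted p 0.0412) and 0.951% of all genes. Groups did not overlap, with Osmr-/- lower, for these 2 of 7 and for 1.42% of all genes tested. No count over the 7 was tested as such. The 7 genes share a pathway and a regulator, so they are not 7 separate observations.

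For H2-Aa the genotype difference had opposite signs in the 2 number sets, and limma's test of that contrast did not pass after adjustment over all genes. The difference in numbers 4 to 6 minus that in numbers 1 to 3 was 2.0 (standard error 0.503), with an unadjusted limma p of 0.00167 and an adjusted p of 0.254. DESeq2 gave 2.07 with an adjusted p of 0.0188, and over all alternatives the adjusted p ran from 0.0188 to 0.545. H2-DMa had an interaction of 1.39 with an unadjusted p of 0.0353 and an adjusted limma p of 0.473. For H2-Ab1 it was 0.19 and for Cd74 0.75, with adjusted limma p-values of 0.958 and 0.683. The limma fit called 0 of the 7 for this interaction and 0.00% of all genes tested, with 9.85% under an unadjusted p of 0.05. DESeq2 called 1 of the 7 and 0.935% of the 13047 genes to which it gave an adjusted p.

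The balance of the 2 chains of the classical molecule was compared as the log2 ratio of H2-Aa to H2-Ab1, a measure chosen after their values were seen and not corrected for gene length. The linear ratio of normalised counts was 1.16, 1.28, 1.55, 0.952, 0.926 and 2.26 in wild types 1 to 6 and 1.72, 1.14, 3.01, 2.95 and 12.5 in Osmr-/- 1, 2, 3, 5 and 6. Osmr-/- 3, 5 and 6 were above every wild type, and Osmr-/- 1 and 2 were inside the wild-type range. The log2 ratio averaged 0.37 ± 0.485 over the wild types (SD, n = 6) and 1.55 ± 1.30 in Osmr-/- (SD, n = 5), a difference of 1.19. The exact two-sided permutation p was 0.0476, where 0.0022 is the smallest the 462 splits can give. The difference was 0.46 within numbers 1 to 3 and 2.27 within numbers 4 to 6. When single libraries were left out it ran from 0.67, without Osmr-/- 6, to 1.53, with exact permutation p-values from 0.00952 to 0.119.

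**Figure D3:**
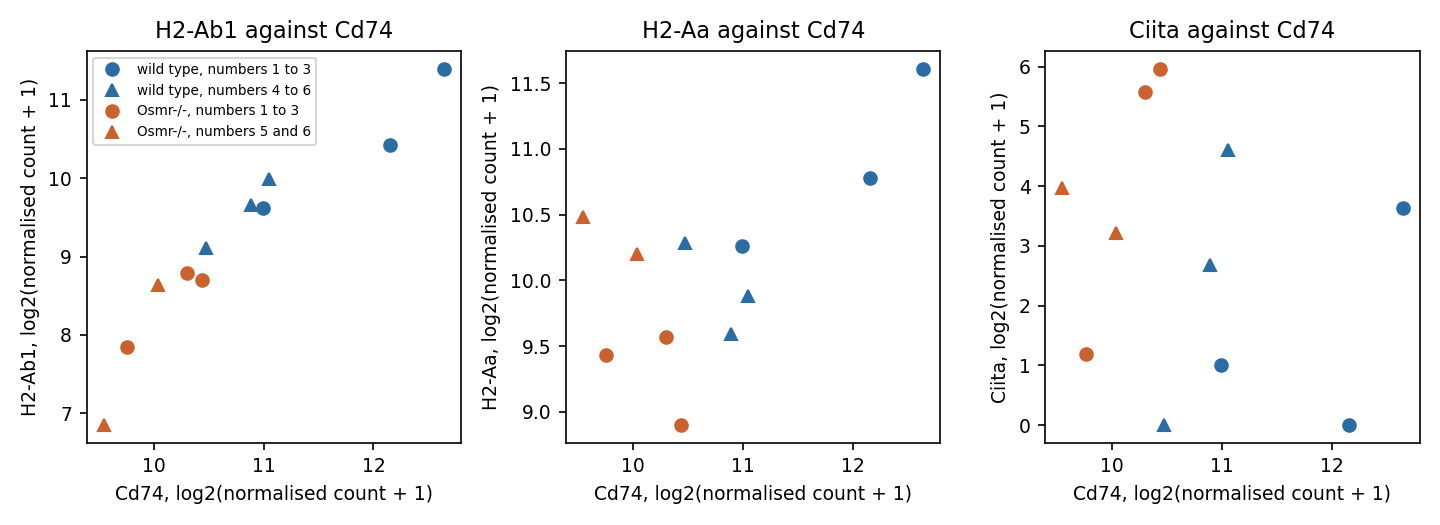
Log2(normalised count + 1) of H2-Ab1, H2-Aa and Ciita against that of Cd74, with 1 point per library (blue wild type, orange Osmr-/-; circles for label numbers 1 to 3, triangles for 4 to 6). H2-Ab1 and Cd74 line up over all 11 libraries, H2-Aa departs from the line in Osmr-/- 5 and 6, and Ciita shows no line.

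Across the 11 libraries H2-Ab1 and Cd74 varied together, also after centring on genotype. The relation of each other member to Cd74 was computed on log2(normalised count + 1), 6 relations in all, with permutation p-values adjusted over the 6 by Benjamini-Hochberg. For H2-Ab1, Pearson's r was 0.950 (permutation p 1e-05, the smallest 100000 draws can give; adjusted 6e-05) and Spearman's rho 0.982 (permutation p 1e-05). It was 0.961 without wild types 1 and 2, the 2 libraries farthest from the median of Cd74, 0.987 within numbers 1 to 3, 0.966 within numbers 4 to 6, and 0.885 after each value was centred on its genotype's mean. The H2-DM chains came next. H2-DMb1 had an r of 0.877 (permutation p 0.00059, adjusted 0.00177) and a rho of 0.755 (permutation p 0.0100), and H2-DMa an r of 0.820 (permutation p 0.00151, adjusted 0.00302) and a rho of 0.782 (permutation p 0.00607). Without wild types 1 and 2, r was 0.618 for H2-DMb1 and 0.648 for H2-DMa. Within numbers 1 to 3 it was 0.988 and 0.885, and within numbers 4 to 6 it was 0.530 and 0.539.

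The relations of H2-Aa and H2-Eb1 to Cd74 had a lower r when wild types 1 and 2 were left out, and differed between the number sets. H2-Aa had an r of 0.630 (permutation p 0.0391, adjusted 0.0469) and a rho of 0.455 (permutation p 0.165). Its r turned to -0.108 without those 2 libraries and was 0.917 within numbers 1 to 3 and -0.850 within numbers 4 to 6. H2-Eb1 had an r of 0.648 (permutation p 0.0335, adjusted 0.0469) and a rho of 0.655 (permutation p 0.0340), and an r of 0.337 without them, 0.568 within numbers 1 to 3 and 0.923 within numbers 4 to 6. Ciita had an r of -0.190 (permutation p 0.574, adjusted 0.574) and a rho of -0.237 (permutation p 0.482), and no relation was detectable on so few reads.

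Many genes outside the pathway followed the class II genes from library to library. Likeness was measured as Pearson's r, over the 11 libraries, with the mean z-score of H2-Aa, H2-Ab1, H2-Eb1 and Cd74, and is given as a description because the libraries share their depth and number sets. With the 7 members left out, the highest of 13351 genes were Maf1 and Parp2 at 0.963, Tspan32 at 0.960, Rab11b and Psmc4 at 0.958, Acat1 at 0.946, Sirt3 at 0.942, Spint2 at 0.940, Eif6 at 0.937 and Pdzk1ip1 at 0.935. In all, 348 genes had an r of at least 0.8. After centring on each genotype's mean there were 149, and Parp2, Psmc4, Maf1, Tspan32 and Rab11b were again among the 10 highest, at 0.911 to 0.928. The others of those 10 were Gm12096 at 0.943, Zwint at 0.939, Txn2 at 0.928, Psmc1 at 0.908 and Mat2b at 0.903.

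H2-Oa and H2-Ob, which encode the dimer that restrains H2-DM, had means in the 2 genotypes that lay within their spread. H2-Oa averaged 588 ± 146 normalised counts over wild-type libraries (SD, n = 6) and 537 ± 178 in Osmr-/- (SD, n = 5), a log2 difference of -0.16 with a 95% interval from -0.74 to 0.43 and an adjusted limma p of 0.803. H2-Ob had 355 ± 135 and 388 ± 183, a log2 difference of 0.07 with a 95% interval from -0.67 to 0.82 and an adjusted limma p of 0.936. H2-Eb2 had 0 reads in wild type and 5 in Osmr-/-. Over the list of other class II chains, 5 of 6 genes were in the table and 3 were tested, 2 below 0 and 1 above. Their median was -0.16, and 0 were called by limma (0 at an unadjusted p under 0.05).

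Among the factors that hold CIITA on DNA (the RFX, NF-Y and CREB proteins), 5 of 7 genes were below 0 and 2 above, with a median log2 difference of -0.50. Limma called 0 of them, and 1, Rfxank, had an unadjusted p under 0.05. Rfxank, a subunit of the RFX complex that binds the X box, averaged 581 ± 183 normalised counts over wild-type libraries (SD, n = 6) and 293 ± 188 in Osmr-/- (SD, n = 5). Its log2 difference was -1.29 with a limma p of 0.0219 and an adjusted p of 0.209. The other RFX subunits had log2 differences of -0.74 for Rfxap (adjusted limma p 0.329) and 0.45 for Rfx5 (adjusted limma p 0.461). Among genes of the interferon gamma route to Ciita and factors of the Ciita promoter, taken as 1 list, 11 of 13 were tested. Of these, 7 were below 0 and 4 above. Their median was -0.40, and limma called 0, with 1 lower (Usf1) and 1 higher (Jak2) at an unadjusted p under 0.05. Usf1 had a log2 difference of -2.66 (adjusted limma p 0.262), with 0 reads in Osmr-/- 1 and 3. Jak2, a kinase at the interferon gamma receptor, had a log2 difference of 0.51 (adjusted limma p 0.249). Jak1 had one of 0.28 (adjusted limma p 0.414), and the receptor chain Ifngr1 one of -0.51 (adjusted limma p 0.317). Spi1, which encodes the myeloid and B-cell factor PU.1, had 766 ± 397 normalised counts in wild type (SD, n = 6) and 435 ± 202 in Osmr-/- (SD, n = 5), with an adjusted limma p of 0.322.

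Genes that cut the invariant chain, make peptides or turn class II molecules over were mostly on the lower side. Of this list, 10 of 12 symbols were in the table and 9 genes were tested, 8 below 0 and 1 above, with a median log2 difference of -0.66. Limma called 0, with 2 lower (Ctsl and Ctsh) at an unadjusted p under 0.05. Ctsl, which encodes a cathepsin that trims the invariant chain in some tissues, averaged 1041 ± 529 normalised counts over wild-type libraries (SD, n = 6) and 502 ± 295 in Osmr-/- (SD, n = 5), a log2 difference of -1.17 with an adjusted limma p of 0.222. Ctsh, another lysosomal cathepsin, had a log2 difference of -0.80 with an adjusted limma p of 0.242. The gene above 0 was Sppl2a, which encodes the protease that clears the last membrane stub of CD74, with a log2 difference of 0.49 and an adjusted limma p of 0.297. The partners of CD74 in MIF signalling were on the other side of 0. There 4 of 5 genes (Mif, Ddt, Cd44 and Cxcr4) were tested, all above 0 at a median of 0.29, and limma called 0 (0 at an unadjusted p under 0.05).

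The MHC class I pathway, which shares promoter boxes with class II and depends on NLRC5 in place of CIITA, had genes on both sides of 0. Of 12 genes tested, 10 were below 0 and 2 above, with a median log2 difference of -0.24. Limma called 0, with 4 lower and 2 higher at an unadjusted p under 0.05, and DESeq2 called 2, Nlrc5 and Psmb10. The 2 above were Nlrc5 and B2m. Nlrc5 averaged 370 ± 118 normalised counts over wild-type libraries (SD, n = 6) and 733 ± 155 in Osmr-/- (SD, n = 5), with every Osmr-/- library above every wild type, as for 1.09% of all genes tested. Its log2 difference was 1.02 (standard error 0.269, adjusted limma p 0.105), and the authors' deposited table lists Nlrc5 at a log2 fold change of 0.92 (adjusted p 0.0129). B2m, the light chain of class I, had a log2 difference of 0.86 (adjusted limma p 0.267), H2-D1, a class I heavy chain, one of -0.71 (adjusted limma p 0.172) and Psmb10, an immunoproteasome subunit, one of -0.91 (adjusted limma p 0.128). The difference between the class I and class II pathways was not tested.

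**Figure D4:**
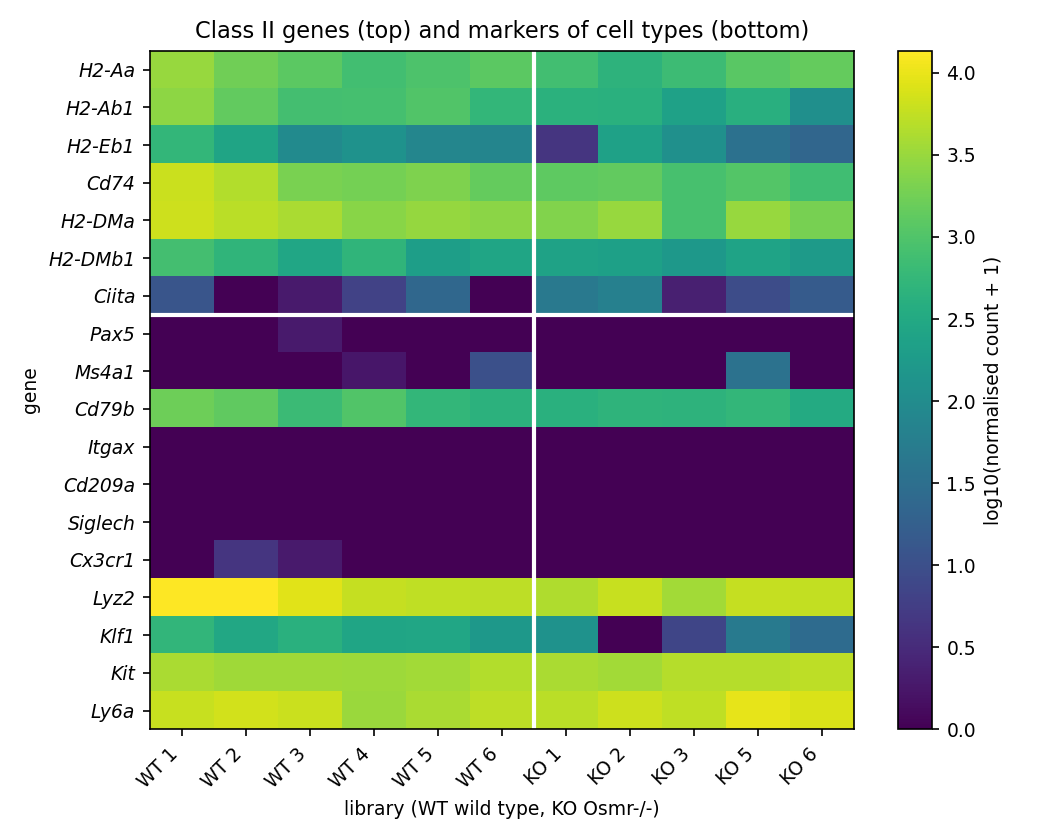
Heat map of log10(normalised count + 1), 1 column per library (wild type left of the white line, Osmr-/- right of it), for the 7 class II genes above the white line and for markers of cell types below it. Pax5, Itgax, Cd209a, Siglech and Cx3cr1 are at or near 0 in all libraries, Cd79b and Lyz2 are present in all, and Kit and Ly6a are high throughout. The markers shown were chosen after their values were seen. Other dendritic and macrophage markers that are not shown, such as Bst2, Cd68 and C1qb, were read in every library.

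Markers of the classical class II cells were measured in the same libraries. For B cells, which the lineage antibody to B220 should remove, 4 of 15 markers passed the filter, 2 below 0 and 2 above, with a median log2 difference of 0.19. The B-cell factor Pax5 had 1 read in all libraries together. Cd79b, a B-cell receptor subunit, was present in every library at 950 ± 490 normalised counts in wild type (SD, n = 6) and 453 ± 79.5 in Osmr-/- (SD, n = 5), with a log2 difference of -0.92 and an adjusted limma p of 0.179. The summed B-lineage markers ran from 652 to 1804 in wild type and from 493 to 752 in Osmr-/-. Cd79b was called by DESeq2, as 1 of the 15 B-lineage markers, and by neither limma nor edgeR. Its partner in the B-cell receptor, Cd79a, was on the other side, with 0, 0, 0, 0, 0 and 36 reads in wild types 1 to 6 and 0, 37, 59, 27 and 67 reads in Osmr-/- 1, 2, 3, 5 and 6. Cd79a was thus at 0 in wild types 1 to 5 and read in 4 of 5 Osmr-/- libraries, with a log2 difference of 3.65 (limma p 0.0163, adjusted p 0.189). It passed the filter through exactly 5 libraries, wild type 6 and those 4 Osmr-/- ones, so its higher Osmr-/- values let it be tested. Vpreb1, part of the surrogate light chain of precursor B cells, averaged 39.4 ± 12.8 normalised counts over wild-type libraries (SD, n = 6) and 65.5 ± 48.1 in Osmr-/- (SD, n = 5). The tested B-lineage markers therefore lay on both sides of 0, with Cd79b on the side of most class II genes. With the filter at 50, Cd79b was the 1 marker of the list still tested. The part of the B-lineage markers in the class II difference was not tested.

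For dendritic cells, 3 of 12 markers, Itgax, Cd209a and Siglech, had 0 reads in all 11 libraries. Of the list 4 were tested and all 4 were below 0, with a median log2 difference of -0.43 and 0 at an unadjusted limma p under 0.05. Flt3, 1 of these 4, is also in the list of stem cell gate genes. The summed level of the dendritic markers, mostly Cst3, ran from 11228 to 14229 in wild type and from 9517 to 16394 in Osmr-/-. Bst2 was read in every library, at 568 ± 118 normalised counts in wild type (SD, n = 6) and 471 ± 257 in Osmr-/- (SD, n = 5). For monocytes and macrophages, which the antibody to CD11b should remove, 9 of 16 markers were tested, 5 below 0 and 4 above. Their median was -0.07. Their summed level ran from 6241 to 14982 in wild type and from 4561 to 7263 in Osmr-/-, mostly Lyz2, which had 8708 ± 3882 (SD, n = 6) and 5131 ± 1009 (SD, n = 5). Cd68 and C1qb were also read in every library. Cd68 averaged 280 ± 209 in wild type and 327 ± 177 in Osmr-/-, and C1qb 271 ± 86.1 and 182 ± 95.4 (SD, n = 6 and n = 5). The part of these markers in the class II difference was not tested. For T and NK cells 3 of 9 markers were tested, 2 below 0 and 1 above, and Cd3g and Gzma were at 0 reads in all libraries. Nkg7 was read in every library, at 5239 ± 1311 normalised counts in wild type (SD, n = 6) and 5419 ± 704 in Osmr-/- (SD, n = 5). Lck averaged 123 ± 82.2 in wild type and 122 ± 103 in Osmr-/-, and Klrb1c 67.1 ± 19.7 and 58.0 ± 87.2 (SD, n = 6 and n = 5).

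Markers of erythroid precursors were on the lower side in Osmr-/- together with the class II genes. All 10 of 10 were below 0, with a median log2 difference of -2.23 and 8 at an unadjusted p under 0.05. Rhd, a red cell membrane protein gene, was the 1 gene of all lists described here that limma called, where DESeq2 called 9 genes outside the class II set (5 of them erythroid) and edgeR 0. Their summed level ran from 17846 to 58116 in wild type and from 12006 to 18282 in Osmr-/-. The stem cell gate genes had 6 of 13 below 0 and 7 above, with a median of 0.05. Limma called 0 of them, with 1 lower and 1 higher at an unadjusted p under 0.05, and DESeq2 called 1. The list also holds Flt3 and Cd48, whose proteins the gate excludes. Whether the erythroid and the class II differences are linked was not tested.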

How the data were processed

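Polyadenylated RNA from 11 sorted samples was compared, 6 wild type and 5 Osmr-/-. Per the submitters' processing notes, reads were processed with Trimmomatic 0.36.6, FastQC 0.72, HISAT2 2.1.0, HTSeq 0.9.1 and the DESeq2 wrapper 2.11.40.6 on mm10 (GRCm38). Which annotation and strand setting were used is unstated in the labels and notes used here. The authors deposited gene counts divided by size factors (a normalised signal), 2 log2 scale tables (rLog and VST), and a comparison table with log2 fold changes, a Wald score and p-values, as deposited. That table is coded wild type over knock-out, so its signs are turned here. The deposited values were whole multiples of 1 step per library, which gave back whole reads (largest distance 1.4e-09).

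Genes that reached 10 normalised counts in 5 or more libraries, 13358 of 43279, were fitted on log2(normalised count + 1) with limma 3.58.1 (lmFit, eBayes with trend) in R 4.3.3, with genotype alone. P-values are two-sided and adjusted by Benjamini-Hochberg over all genes tested. Single values were tested by exact permutation over libraries and relations by 100000 permutations (scipy). As alternatives, the pseudocount was set to 0.5 or 10, the filter was dropped or raised to 50, and the fit was repeated with TMM or quantile scaling, rLog and VST values, array weights, no trend, edgeR 4.0.16 and DESeq2 1.42.0 on reads, a replicate block, a number set covariate, each number set alone, and each library left out. The genotype fits of limma, edgeR and DESeq2 were also run on counts simulated with a genotype effect and no number sets. That run does not bear on the number sets, and its outcome is not given here.

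The genes named are the 7 members, the pathway lists, the 3 most abundant and the unread genes of each marker list, the 10 genes most like the class II genes by each measure, and Osmr. Members and lists were chosen with earlier results of these data known. The figure's marker genes and values of Pax5, Cd79a, Kit, Rhd, Brd2 and Dexi, and the ratio of H2-Aa to H2-Ab1, were chosen after their values were seen. The values of 1 marker gene are not reported here. Depth limits precision at low counts. The libraries carry no molecular identifiers named in the labels, so reads are not independent molecules.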

Additional observations from a re-analysis of the deposited data

Results flagged for a closer look

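The library total of wild type 1, at 22.1 M reads, stood apart from the other wild types by a gap of 0.701 of the group's range. It was the 1 value flagged among 16 groups of libraries checked, and chance alone flags about 5% of groups. Wild type 1 also had the highest normalised counts of H2-Aa, H2-Ab1, H2-Eb1, H2-DMa, H2-DMb1 and Cd74. Without it the log2 difference was -1.60 for H2-Ab1 (adjusted limma p 0.127) and -1.10 for Cd74 (adjusted limma p 0.171).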

How the results depend on the processing

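The direction of H2-Ab1, H2-Eb1, H2-DMa, H2-DMb1, Cd74, Nlrc5 and Rfxank held under every alternative run, and that of Ciita under the 21 that tested it. The direction turned for H2-Aa within numbers 4 to 6 (0.42), for H2-Oa within numbers 4 to 6 (0.013) and for H2-Ob without wild type 3 (-0.03) or Osmr-/- 2 (-0.15), with H2-Ob running from -0.15 to 0.30 over single libraries left out. The count of class II genes called, 0, became 2 with DESeq2 and 2 with the number set covariate, and ran from 0 to 1 with single libraries left out (1, H2-Ab1 at an adjusted limma p of 0.0412, without wild type 6, where 0.951% of all genes were called). All genes called, 3, became 55 with a pseudocount of 10, 0 with no filter, 0 with a filter at 50, 56 with quantile scaling, 69 with rLog, 66 with VST, 469 with DESeq2 and 337 with the number set covariate, and ran from 0 to 125 with single libraries left out. Genes of the other lists called, 1, became 0 with a pseudocount of 0.5, 3 with a pseudocount of 10, 0 with no filter, 0 with a filter at 50, 2 with quantile scaling, 3 with rLog, 3 with VST, 0 with array weights, 0 without trend, 0 with edgeR, 9 with DESeq2 and 8 with the number set covariate, and ran from 0 to 1 with single libraries left out. The interaction count of 0 became 1 with DESeq2 and stayed at 0 with each library left out. The difference in library totals, -2.93 M, ran from -3.66 to -1.20 M, with an exact permutation p of 0.0318 without wild type 5 and 0.0476 without wild type 6. The causes were not tested.

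Same-numbered libraries of the 2 genotypes deviated from their group means with correlations of 0.02 to 0.099, and wild type 1 correlated more with Osmr-/- 2 than with its own number, so the numbers were not taken to pair the samples. With the label number as a replicate block, 0 class II genes, 0 of all genes and 0 list genes were called, with adjusted limma p-values of 0.0503 for H2-Ab1 and 0.0591 for Cd74.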
